A study of Rattus with 6 samples.

Results

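Bone resorption is set by a small extracellular circuit, and its 8 core genes were followed here in cultured rat marrow stroma. They were chosen by symbol for their known part in that circuit, with earlier results of these data known. They are Tnfrsf11b, Tnfsf11, Tnfrsf11a, Csf1, Nfatc1, Dcstamp, Acp5 and Ctsk, and all 8 were found among the 16690 genes of the deposited table. RNA of cultured marrow mesenchymal stem cells (BMSCs), which are adherent stroma, had been sequenced. The cells came from the femurs and tibias of wild-type Sprague Dawley rats, with modelled chronic kidney disease (CKD) or healthy, and each group has 3 libraries. By flow cytometry they were CD29+, CD90+, CD34- and CD45-, per the labels. The labels do not say how CKD was produced, and they give neither the age of the animals nor which animal each library came from. The RNA is called cellular in the series' design and exosomal in the extraction protocol, and which holds was not settled here.

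RANKL, encoded by Tnfsf11, is the cytokine with which stromal cells, osteoblasts, osteocytes and T cells drive macrophage precursors to become osteoclasts. It binds RANK (Tnfrsf11a) on the precursor, and osteoprotegerin (Tnfrsf11b) is a secreted decoy receptor of stroma that captures RANKL and so protects bone. M-CSF (Csf1) keeps the precursors alive, the transcription factor NFATc1 (Nfatc1) switches on the osteoclast programme, DC-STAMP (Dcstamp) is needed for cell fusion, and the enzymes TRAP (Acp5) and cathepsin K (Ctsk) serve resorption. Loss of osteoprotegerin in mice brings both low bone mass and calcified arteries, and the title of the series names vascular calcification.

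Depth ran from 34404037 to 46892613 fragments per library, as recovered from the table. The libraries did not separate cleanly by group. Across genes, CKD replicate 1 lay closer to control replicate 1 (Pearson r = 0.967) than to the other CKD libraries (0.935 and 0.944), while CKD replicates 2 and 3 (r = 0.996) and control replicates 2 and 3 (r = 0.998) formed close pairs. The disease model tag of CKD replicate 1 and of control replicate 2 goes against their titles, and titles were followed. Library names of CKD replicates 1 and 3 share a start, as do those of control replicates 1 and 2, and the labels do not say whether such libraries share an animal. Stromal genes were abundant in all 6 libraries, with Thy1 between 505 and 801 FPKM (fragments per kilobase, scaled to depth, a length-corrected level), whereas Lepr, a marker of stroma in the intact marrow, stayed at or below 0.246 FPKM. Markers of haematopoietic cells and macrophages, the lineage of osteoclast precursors, were present unevenly. Values are listed from here on for replicates 1, 2 and 3 of a group in that order. The 20 macrophage-lineage markers summed to 299, 3397 and 2296 FPKM in CKD, and to 418, 22.8 and 15.0 in control. Lyz2 alone gave 232, 2224 and 1473 FPKM of these sums in CKD, and 271, 8.56 and 3.87 in control. Cd14 gave 9.5 and 8.27 FPKM in control replicates 2 and 3. Cd74 of that list, below the filter, had its highest level in control replicate 1, at 0.326 FPKM. Of the 16 markers tested, limma called 0, while 9 had unadjusted p-values under 0.05, and the median log2 fold change was 3.134. Of these markers, C1qc was at 0 in control replicate 2, and Adgre1, C1qb and C1qc were at 0 in control replicate 3. Ptprc, which encodes the CD45 that the labels call absent, stood at 0.783, 15.5 and 11.4 FPKM in CKD and at 1.33, 0.0140 and 0.0204 in control. In bulk RNA, a smaller number of such cells and less RNA per cell cannot be told apart. None of 9 tested stromal markers (median -0.188) and of 3 tested osteoblast markers (0.923) was called. The osteoblast median was the value of Spp1, at 476, 2043 and 1682 FPKM in CKD and 584, 644 and 637 in control. Runx2 had a log2 fold change of 0.0755 and Alpl, highest in CKD replicate 1, one of 0.989. Endothelial markers summed to at most 2.42 FPKM in any library, reached in control replicate 2, where Tek gave 2.25. Of 5 neutrophil markers only 2, Mpo and Csf3r, were read here, and they summed to at most 0.295 FPKM. Of 8 T and B cell markers 1, Cd4, which rat macrophages also carry, was tested (limma adjusted p = 0.156). Cd8a of that list, below the filter, stood at 0, 7.93 and 5.08 FPKM in CKD and at 0.0154, 0.0173 and 0 in control.

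Of the 8 genes, osteoprotegerin was the 1 that rose in CKD by the test across all genes, RANKL was almost without fragments, and the receptor RANK, Dcstamp and Acp5 had their highest levels in CKD replicates 2 and 3 and were low in CKD replicate 1. Csf1 and Ctsk were abundant in both groups. The test was limma on log2(FPKM + 1) with Benjamini-Hochberg adjustment over 10638 genes that had at least 1 FPKM in at least 3 libraries. Among the 5 genes of the circuit that entered it, 1 was called higher and 0 lower, against 1.33% of all tested genes called higher and 0.733% called lower (2.07% in all). An unadjusted p under 0.05 was reached by 3 of the 5 and by 22.1% of all genes tested. The median log2 fold change was 0.354 over these 5 genes and 0.053 over all genes tested. Since the genes were chosen with earlier results of these data known, such comparisons are descriptive and test nothing about the circuit. Tnfsf11, Tnfrsf11a and Dcstamp lay below the filter and are described by their values.

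**Figure D1:**
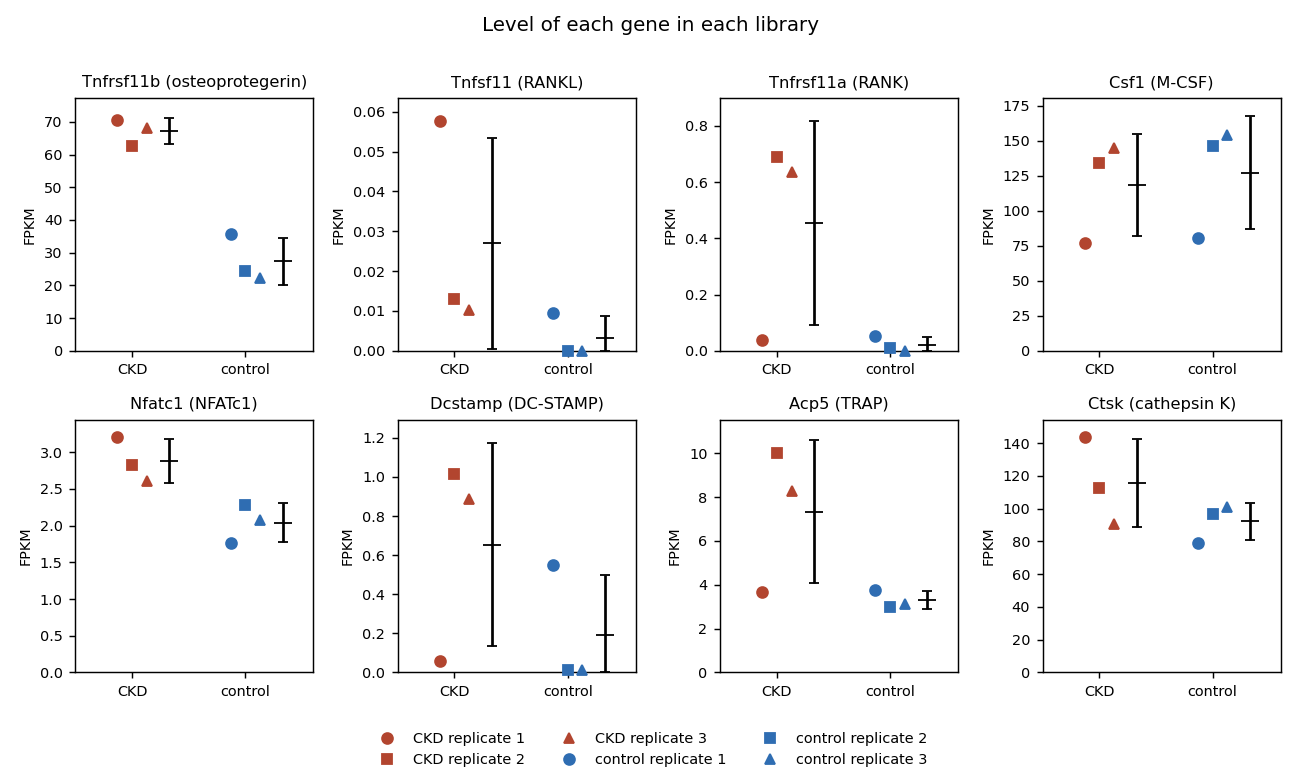
FPKM of the 8 genes in each library, with CKD in red and control in blue, the replicate shown by the symbol, and the black mark giving the group mean with 1 SD (n = 3), cut at 0. Tnfrsf11b lay between 62.6 and 70.4 FPKM in CKD and between 22.3 and 35.6 in control, while Tnfrsf11a and Dcstamp were low in CKD replicate 1 and high in CKD replicates 2 and 3.

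Tnfrsf11b (NCBI Gene 25341) stood at 70.4, 62.6 and 68.1 FPKM in CKD, from 7573, 6004 and 8173 fragments. In control replicates 1, 2 and 3 it stood at 35.6, 24.2 and 22.3 FPKM, from 4645, 2819 and 2381 fragments. The groups did not overlap, the 3 CKD libraries were close together, and the highest control was control replicate 1. Mean levels were 67.1 ± 4.01 FPKM in CKD and 27.4 ± 7.15 in control (SD, n = 3 each), a ratio of 2.45. On the log2(FPKM + 1) scale the change was 1.29 ± 0.18 (SE; limma adjusted p = 0.0429). The gene was also higher in the authors' deposited table, at 1.21 on the log2 scale (q-value 7.82e-06).

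Between the first replicates, with macrophage sums of 299 FPKM in CKD and 418 in control, the CKD to control ratio of Tnfrsf11b was 1.98. Between the means of the remaining libraries, where those sums were 3397 and 2296 in CKD and 22.8 and 15.0 in control, it was 2.81. A fit without both first replicates gave a log2 fold change of 1.45 (limma adjusted p = 5.8e-06). That fit used only replicates 2 and 3 of each group, and 55% of all genes tested were called in it (34.7% higher in CKD). The part of macrophage content in the rise was not tested. The call was close to the threshold. With every gene kept the limma adjusted p was 0.0549, and limma-voom on recovered counts gave 0.0557. It was 0.196 or 0.223 when CKD replicate 2 or 3 was dropped, and 0.153 or 0.197 when control replicate 2 or 3 was. In these 6 fits the log2 fold change stayed between 1.162 and 1.337. Few genes of all tested kept a call when those libraries were dropped. Without CKD replicate 2 or 3, 3 and 1 genes were called higher in CKD, against 142 with all libraries. Without control replicate 2 or 3, it was 1 and 1. With libraries that share a name start averaged, and CKD replicate 2 and control replicate 3 kept as they were, the log2 fold change was 1.32 (limma adjusted p = 0.0486). That setting did not merge the close pairs, which were replicates 2 and 3 of each group. The call was lost as well without both libraries of conflicting tag (1.18, limma adjusted p = 0.105), and with groups taken from the disease model tag the log2 fold change was 0.289 (limma adjusted p = 0.873).

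Tnfsf11 (NCBI Gene 117516), the ligand that osteoprotegerin captures, was all but absent, with 5, 1 and 1 fragments for CKD and 1, 0 and 0 for control. These correspond to 0.0576, 0.0129 and 0.0103 FPKM in CKD and 0.00947, 0 and 0 in control. A count of 0 allows up to 3 fragments, worth 0.0319 FPKM in control replicate 2 and 0.0348 in control replicate 3, so CKD replicate 1 was the 1 library above such a limit. A difference in RANKL between groups was not detectable at this depth.

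With so few Tnfsf11 fragments, the balance of decoy receptor to ligand could not be measured. A ratio with 1 FPKM added to each gene had to follow osteoprotegerin. The log2 ratio of Tnfrsf11b to Tnfsf11, each as FPKM + 1, was 6.08, 5.97 and 6.10 in CKD and 5.18, 4.66 and 4.54 in control. It averaged 6.05 ± 0.07 in CKD and 4.79 ± 0.34 in control (SD, n = 3 each), a difference of 1.26 with groups that did not overlap. The two-sided exact permutation p was 0.1, the smallest that 3 against 3 libraries can give. Since Tnfsf11 added at most 0.0576 FPKM to the 1 in the denominator, this number restates the level of Tnfrsf11b.

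Tnfrsf11a (NCBI Gene 498206), the receptor that receives RANKL, was read from 4, 66 and 76 fragments (CKD) and from 7, 1 and 0 (control). Its levels were 0.0373, 0.690 and 0.635 FPKM in CKD and 0.0537, 0.00862 and 0 in control. CKD replicate 1 lay below control replicate 1, so the groups overlapped, and the high values belonged to the pair of libraries rich in macrophage transcripts. The authors' deposited table lists Tnfrsf11a as higher, at 4.31 on the log2 scale (q-value 0.0288). With no filter on low values, limma gave a difference of 0.477 ± 0.195 SE on the log2(FPKM + 1) scale (adjusted p = 0.264). Of the 8 genes, 2 had a q-value under 0.05 in the authors' deposited table, Tnfrsf11b and Tnfrsf11a, where 11.3% of its genes did (6.72% with a higher level in CKD). Macrophage markers moved with Tnfrsf11a, and their part in its difference was not tested.

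RANK ran in step with Csf1r, the M-CSF receptor of macrophages and osteoclast precursors. Csf1r stood at 1.42, 25.7 and 21.0 FPKM in CKD and at 2.20, 0.290 and 0.152 in control. The authors' deposited table lists Csf1r as higher too, at 4.07 on the log2 scale (q-value 0.0334). For Ptprc it lists 4.23 (q-value 0.13). Tnfrsf11a amounted to 2.69% of the Csf1r level in CKD replicate 2 (95% exact interval 2.07 to 3.42) and 3.02% in CKD replicate 3 (2.37 to 3.79). In CKD replicate 1 it was 2.63% (0.709 to 6.82) and in control replicate 1 it was 2.44% (0.974 to 5.07). These 4 intervals overlapped, in libraries whose Csf1r levels ran from 1.42 to 25.7 FPKM. Control replicates 2 and 3, with 50 and 24 fragments of Csf1r, were too shallow to place. These intervals cover counting error only, and the ratio was chosen after the values had been seen.

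Dcstamp (NCBI Gene 103690326), which macrophage precursors need to fuse, was read from 5, 76 and 83 fragments (CKD) and from 56, 1 and 1 (control). The levels were 0.0596, 1.02 and 0.886 FPKM in CKD and 0.549, 0.0110 and 0.0120 in control. As with RANK, the groups overlapped and CKD replicate 1 was low. Control replicate 1 was the exception to the parallel with Csf1r. There Dcstamp reached 24.9% of the Csf1r level (95% exact interval 18.5 to 33.0), against 3.95% (3.11 to 4.96) and 4.21% (3.35 to 5.24) in CKD replicates 2 and 3 and 4.19% (1.35 to 9.93) in CKD replicate 1. With no filter, limma gave a difference of 0.449 ± 0.305 SE for Dcstamp (adjusted p = 0.446), and without both first replicates the difference of means was 0.947.

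**Figure D2:**
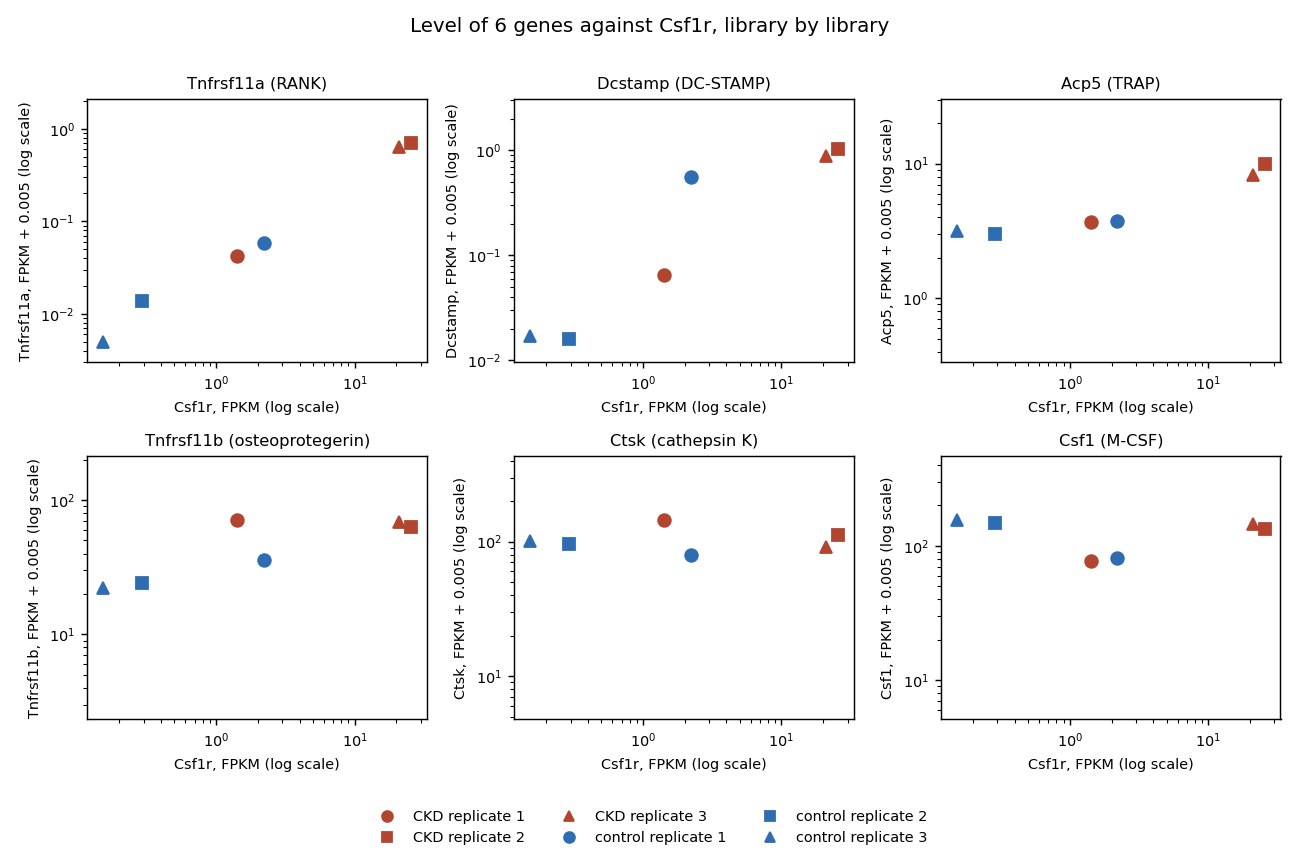
FPKM of 6 genes (vertical axes, with 0.005 added so that 0 can be drawn) against FPKM of Csf1r (horizontal axes), both on log scales, with 1 point per library. Tnfrsf11a climbed along with Csf1r, Dcstamp did so except in control replicate 1 (0.549 FPKM), Acp5 stayed between 3.01 and 3.77 FPKM up to a Csf1r level of 2.20, and Tnfrsf11b and Ctsk showed no such climb in CKD.

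Acp5 (NCBI Gene 25732), the tartrate-resistant phosphatase used as a stain for osteoclasts, stood at 3.69, 10.0 and 8.29 FPKM in CKD. It stood at 3.77, 3.01 and 3.15 FPKM in control. Both first replicates had nearly the same level, so the groups overlapped, and the high values again belonged to CKD replicates 2 and 3. Unlike RANK and Dcstamp, Acp5 had a floor of 258 to 379 fragments in the 4 other libraries, including control replicate 3 with 24 fragments of Csf1r. Mean levels were 7.33 ± 3.27 FPKM in CKD and 3.31 ± 0.408 in control (SD, n = 3 each). The difference of 0.87 ± 0.33 SE on the log2 scale did not pass (limma adjusted p = 0.202), and the authors' deposited table lists a q-value of 0.0512. The outcome turned on CKD replicate 1, without which the log2 fold change was 1.24 (limma adjusted p = 0.00962). That fit called 1139 of all genes tested higher in CKD and 463 lower, against 142 and 78 with all libraries. Without both libraries of conflicting tag, CKD replicate 1 among them, the log2 fold change of Acp5 was 1.19 (limma adjusted p = 0.0499). There 237 genes were called higher and 61 lower. Levels of the macrophage markers moved with Acp5, and their part in its difference was not tested.

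Ctsk (NCBI Gene 29175), the main collagen-degrading protease of osteoclasts and a gene that fibroblasts also express, behaved otherwise. It stood at 144, 112 and 90.8 FPKM in CKD and at 79.2, 96.5 and 100.9 in control. The groups overlapped, and the highest level was in CKD replicate 1. In control replicate 3, Ctsk stood at 100.9 FPKM and the macrophage sum at 15.0, and the part of macrophages in the level of Ctsk was not tested. The change of 0.31 ± 0.19 SE on the log2 scale did not pass (limma adjusted p = 0.390). It was 0.033 without both first replicates, and -0.074 with groups by the disease model tag.

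Nfatc1 (NCBI Gene 100361818), the master transcription factor of osteoclasts that many other cells use as well, stood at 3.21, 2.83 and 2.60 FPKM in CKD. In control replicates 1, 2 and 3 it stood at 1.76, 2.28 and 2.07 FPKM. Every CKD library lay above every control library, as held for 2 of the 5 tested genes of the circuit and for 27.8% of all genes tested (18.3% higher in CKD, 9.59% lower). The difference was small, at 2.88 ± 0.304 against 2.04 ± 0.264 FPKM, with a log2 fold change of 0.35 ± 0.11 SE that missed the threshold (limma adjusted p = 0.142). The highest level was in CKD replicate 1, so Nfatc1 did not follow the libraries in which RANK, Dcstamp and Acp5 were high. Without both first replicates it passed, with a log2 fold change of 0.227 (limma adjusted p = 0.0496). That fit called 3 of the 5 genes, Tnfrsf11b, Acp5 and Nfatc1, where 55% of all genes tested were called (34.7% higher in CKD).

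Csf1 (NCBI Gene 78965), the growth factor that stroma supplies to macrophages, stood at 77.0, 134 and 145 FPKM in CKD and at 80.7, 146 and 154 in control. Each group had 1 low library, its first replicate, and the groups overlapped almost fully. The log2 fold change was -0.095 ± 0.35 SE (limma adjusted p = 0.901). Its sign turned in 5 of 15 other fits, and it ran from -0.391 to 0.517 over all of them. In CKD replicates 2 and 3 the level was 1.81 times that in CKD replicate 1, while Csf1r was 16.5 times and RANK 17.8 times as high. Csf1 was thus as abundant in control replicates 2 and 3, where Csf1r was lowest, as in CKD replicates 2 and 3, where it was highest.

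**Figure D3:**
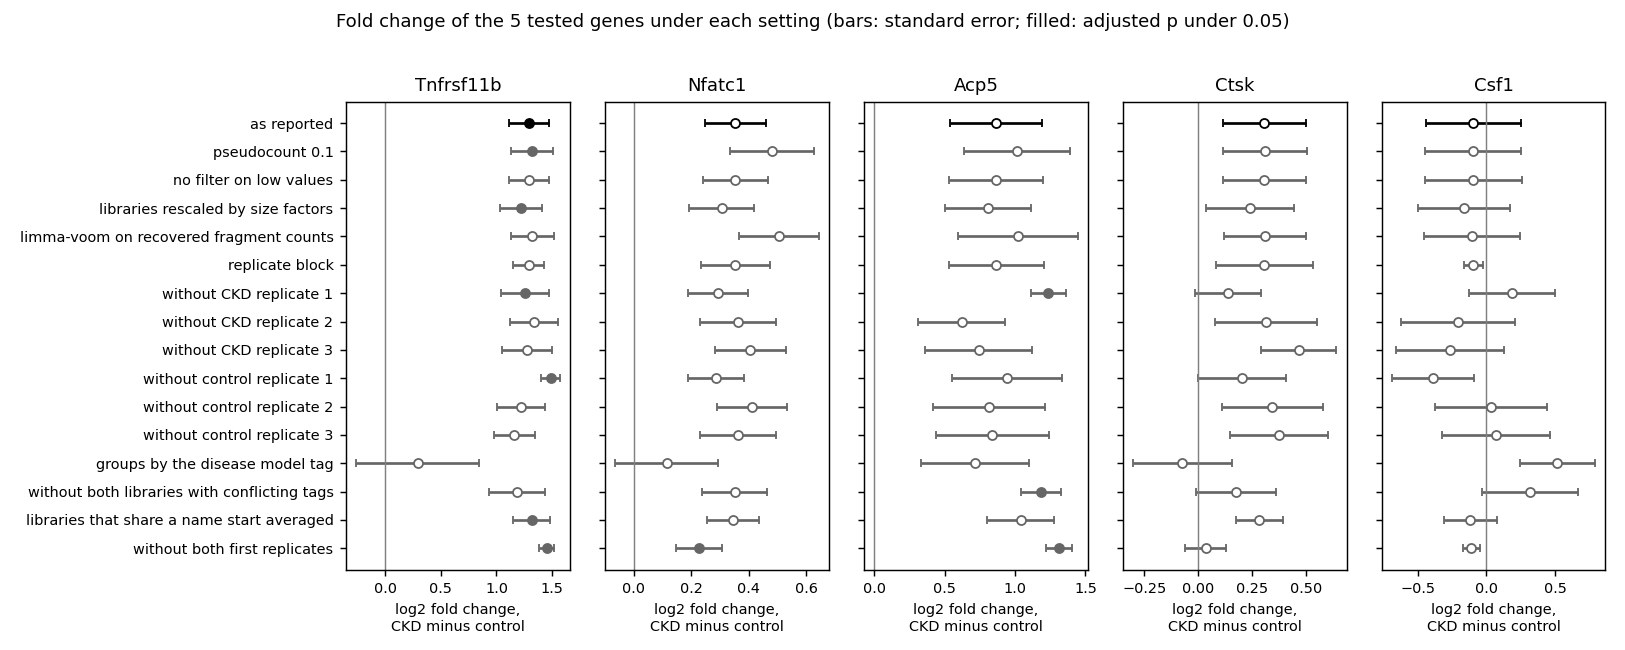
Log2 fold change of CKD against control (points, with the SE as bars) for the 5 tested genes under the reported fit and 15 others, filled where the limma adjusted p is under 0.05. Tnfrsf11b stayed positive in all of them, from 0.289 to 1.49, while Csf1 lay on both sides of 0.

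Ranked by mean FPKM, the order of the 8 genes was the same in both groups, from Csf1 and Ctsk through Tnfrsf11b, Acp5, Nfatc1 and Dcstamp to Tnfrsf11a and Tnfsf11. Csf1 averaged 119 ± 36.4 and Ctsk 116 ± 26.6 FPKM in CKD, and their ranges overlapped there and in control. Tnfrsf11b, Acp5 and Nfatc1 followed without overlap between neighbours in either group. Dcstamp at 0.654 ± 0.519 and Tnfrsf11a at 0.454 ± 0.362 FPKM overlapped in CKD, as they did in control. Csf1 and Tnfrsf11b thus stood far above the receptor and fusion genes of the precursors, and Tnfsf11 stood last by its mean. The ranges of Tnfrsf11a and Tnfsf11 overlapped in both groups. In CKD replicate 1, Tnfsf11 at 0.0576 FPKM lay above Tnfrsf11a at 0.0373.

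The wider pathway was read from lists of genes by role. Of 20 tested genes that carry the signal of RANK, such as Traf6 and the NF-kB subunits, 0 were called and the median log2 fold change was 0.101. The lowest unadjusted p-values belonged to Gab2, an adaptor of RANK (log2 fold change 0.43 ± 0.17 SE), the kinase gene Chuk (0.16 ± 0.06) and Tab1 (-0.21 ± 0.10), with limma adjusted p-values of 0.217, 0.217 and 0.292. Of 14 genes of M-CSF receptor and ITAM signalling, 7 were tested and 0 were called, with 7 positive values and a median of 2.741. Macrophage markers moved with several of them, and their part was not tested. Fcer1g, an ITAM adaptor, went from 0.0398 FPKM in control replicate 3 to 196 in CKD replicate 2 (limma adjusted p = 0.189), and Csf1r had an adjusted p of 0.192. Tec, a kinase downstream of these adaptors, did not follow the macrophage markers in the first replicates. It stood at 1.97, 2.54 and 2.28 FPKM in CKD and at 1.20, 0.683 and 0.588 in control, without overlap (log2 fold change 0.85 ± 0.15 SE, limma adjusted p = 0.059).

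Of 14 genes of fusion and resorption, 10 were tested, 0 were called and the median log2 fold change was 0.207. Atp6v0d2, a proton pump subunit that osteoclasts use, stood at 1.51, 7.77 and 7.81 FPKM in CKD and at 2.42, 0.165 and 0.0400 in control (limma adjusted p = 0.193). Snx10, a sorting nexin without which osteoclasts fail to resorb, had lower values in every CKD library (12.7, 16.4 and 14.4 FPKM) than in any control (20.8, 29.1 and 28.6), with a log2 fold change of -0.80 ± 0.16 SE and a limma adjusted p of 0.0742. The chloride transporter gene Clcn7 had a log2 fold change of 0.20 ± 0.07 (limma adjusted p = 0.199). Ocstamp and Calcr, both features of mature osteoclasts, were not analysed here. Among 6 tested restrainers of osteoclast formation, 0 were called, with a median of 0.740. The Notch effector Rbpj had a log2 fold change of 0.55 ± 0.17 SE (limma adjusted p = 0.144), and the phosphatase gene Ptpn6 one of 1.72 ± 0.79 (0.268).

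Regulators that act on stroma to set osteoprotegerin and RANKL gave 1 called rise and 1 called fall among 15 tested genes, with a median of -0.019. Lrp6, a co-receptor of Wnt ligands, stood at 18.9, 14.6 and 16.1 FPKM in CKD and at 36.3, 31.2 and 31.4 in control. It fell by 0.96 ± 0.12 SE on the log2 scale (limma adjusted p = 0.0344), with groups far apart. Dropping CKD replicate 2 or 3 ended the call (limma adjusted p = 0.161 and 0.210), as did dropping control replicate 2 or 3 (0.134 and 0.188), with log2 fold changes from -0.998 to -0.882. Each of those fits called at most 3 of all genes tested higher and at most 7 lower. Pth1r, the receptor of parathyroid hormone, rose from 0.241, 0.293 and 0.368 FPKM in the controls to 1.56, 1.03 and 1.11 in CKD, by 0.77 ± 0.12 SE on the log2 scale (limma adjusted p = 0.0452). Without each of those same 4 libraries in turn, Pth1r had limma adjusted p-values of 0.199, 0.229, 0.183 and 0.210, and its call was lost in 11 of 15 other fits. Among these were a pseudocount of 0.1 (log2 fold change 1.73, adjusted p = 0.0522), no filter (0.0507), size factors (0.0528), averaged name starts (0.0727) and no conflicting tags (0.0795). The call was kept by limma-voom on recovered counts, at 2.05 (0.0448). With groups by the disease model tag, the log2 fold changes were 0.117 for Pth1r and -0.495 for Lrp6 (limma adjusted p = 0.925 and 0.7). Vdr, the vitamin D receptor, was at 8.77, 3.19 and 4.57 FPKM in CKD and 3.95, 0.903 and 0.486 in control, with overlap through control replicate 1 (limma adjusted p = 0.220). Ctnnb1 and Wnt5a did not pass either (limma adjusted p = 0.329 and 0.364). Of 2 other partners tested (median 0.019), neither Lgr4, a second receptor of RANKL, at 7.81 ± 2.46 against 7.11 ± 0.246 FPKM, nor Sdc1, a proteoglycan that binds osteoprotegerin, at 31.8 ± 1.51 against 37.0 ± 23.5, was called (limma adjusted p = 0.829 and 0.957).

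**Figure D4:**
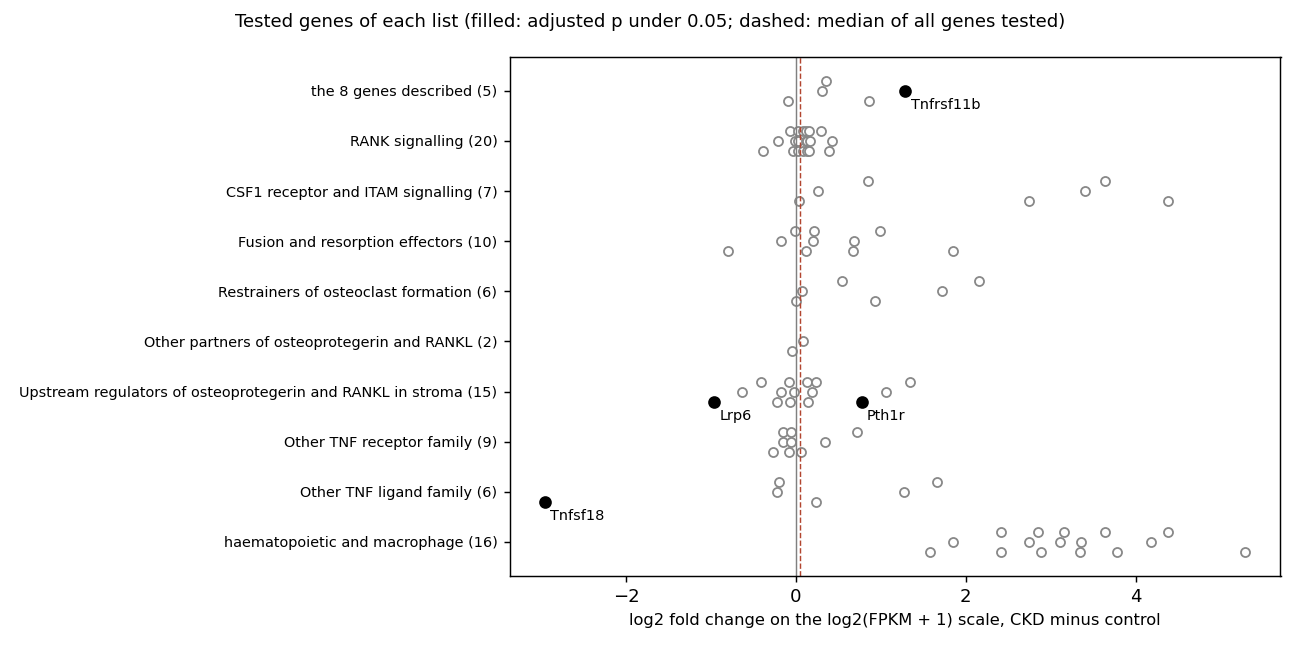
Log2 fold change (CKD minus control, log2(FPKM + 1) scale) of each tested gene of the circuit, of the pathway and family lists and of the macrophage markers, with the number tested in brackets, and filled points called by limma. Tnfrsf11b, Pth1r, Lrp6 and Tnfsf18 were the called genes, and the 16 macrophage markers lay to the right with none called.

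Osteoprotegerin belongs to the receptor family of tumour necrosis factor (TNF), whose other members served as a comparison. Of 23 relatives, 9 were tested and 0 were called, with a median log2 fold change of -0.062. Tnfrsf12a, the TWEAK receptor and the most abundant of them, averaged 119 ± 20.7 FPKM in CKD and 93.0 ± 4.54 in control (limma adjusted p = 0.224). The lymphotoxin receptor gene Ltbr had a log2 fold change of -0.15 ± 0.09 (limma adjusted p = 0.381), and Tnfrsf21 one of 0.72 ± 0.55 (0.483). Among 17 relatives of RANKL in the ligand family, 6 were tested and 1 was called. Tnfsf18, the GITR ligand, fell from 39.5, 101.0 and 89.9 FPKM in control to 11.4, 5.74 and 8.65 in CKD (limma adjusted p = 0.0429). It too lost the call without CKD replicate 2 or 3 (limma adjusted p = 0.197 and 0.223) or control replicate 2 or 3 (0.153 and 0.210). Each of those fits called at most 7 of all genes tested lower. With groups by the disease model tag the log2 fold change of Tnfsf18 was -0.929 (limma adjusted p = 0.819). Tnf itself was at 0.169, 8.24 and 7.81 FPKM in CKD and at 1.97, 0 and 0.0155 in control (limma adjusted p = 0.345), and CKD replicates 2 and 3 had its highest levels, as for RANK. Neither Eda (limma adjusted p = 0.302) nor Tnfsf13 (0.351) passed.

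Patterns most like those of the 5 tested genes were sought by Pearson r of log2(FPKM + 1) over the 6 libraries, as a description. Nearest to Tnfrsf11b were Utp20 (r = 0.998), Drg1 (0.998), Sort1 (0.998), Eif3a (0.997) and Slc39a10 (0.997). Sort1, which encodes the sorting receptor sortilin, stood at 21.7, 19.1 and 20.9 FPKM in CKD and at 12.4, 9.94 and 9.25 in control. Nearest to Acp5 were Slc40a1, the iron exporter ferroportin, with Tmem176a and Rarres2 (r from 0.997 to 0.998), and Tmem176a was at 34.9 and 19.5 FPKM in CKD replicates 2 and 3 and at 0 in control replicates 2 and 3. Nearest to Csf1 were Mxd1, A3galt2 and Otud3 (each r = 0.997). Nearest to Nfatc1 were Aarsd1 (0.998), Babam1 (0.991) and Fgfr1op2 (0.985), and nearest to Ctsk were Rangrf (0.971), Mrpl13 (0.964) and Pxdc1 (0.962). All 6 points share the libraries described above, and with so few points many genes reach a high r.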

How the data were processed

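Poly-A selected, stranded RNA libraries of BMSC cultures were sequenced, 3 per group. Per the file headers, the authors deposited FPKM for every library beside group means of normalized counts, fold changes (linear and log2) and their p-values and q-values. Tools in the submitters' processing notes are HISAT2 2.1.0, HTSeq 0.11.2 and DESeq2 1.22.2 with build mRatBN7.2, without roles or settings. No coordinates or sequences are given, since no reference of that build was used here.

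Numbers were read with decimal commas. Fragment counts were recovered from the FPKM and the group means, and all 100140 values came out whole within 0.01. The lowest mean normalized count in the table was 1.03. Libraries were grouped by title and column code, and each counted as 1 replicate. Nothing ties each library to its own animal, so p-values measure only how these libraries spread, some of which may be technical. A library that is CKD replicate 3 by its column code, is numbered 4 in its title.

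The comparison used limma 3.58.1 under R 4.3.3, with log2(FPKM + 1) as input, the variance trended on level, no covariate and Benjamini-Hochberg adjustment at 0.05. Alternatives were another pseudocount, no filter, size factors, limma-voom on recovered counts, a replicate block, averaged name starts, groups by the tag and left-out libraries. The filter left out 6052 genes. Fold changes on this scale understate low genes. The limma and limma-voom fits were tested on simulated counts with known fold changes. Exact tests used scipy 1.17.1. Genes named beside the 8 are every called gene of a pathway list, the 3 others with the lowest unadjusted p, and the nearest patterns, save 1 gene that is not reported here. Members and lists were chosen with earlier results of these data known. Fits without both first replicates were added after seeing the data.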

Additional observations from a re-analysis of the deposited data

How the results depend on the processing

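The number of called genes depended strongly on the setting. Against 142 higher and 78 lower genes, it was 81 higher without a filter on low values, 60 and 28 with a block for replicate number, 55 and 42 with limma-voom, 0 and 0 with groups by the disease model tag, 237 higher without both libraries of conflicting tag, and 3689 and 2162 without both first replicates. By the tag, 641 genes had an unadjusted limma p under 0.05. With each library left out in turn it ran from 1 to 1139 higher and from 5 to 546 lower. Without CKD replicate 2 or 3 it was 3 and 1 higher, with 6 and 7 lower. Without control replicate 2 or 3 it was 1 and 1 higher, with 6 and 5 lower.

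Tnfrsf11b stayed positive in all 15 fits and lost its call in 9. Its log2 fold change was 1.290 without a filter and with the block (limma adjusted p = 0.0616), 1.323 in limma-voom, 0.289 by the tag, 1.184 without the conflicting tags and 1.162 to 1.487 with each library left out. The same-numbered libraries did not deviate together (r = 0.04, -0.03 and 0.11), so the block is no paired design. It changed no other call among the 8 genes, while Pth1r (0.102) and Tnfsf18 (0.0966) lost theirs under it.

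Csf1 changed sign without CKD replicate 1 (0.187), control replicate 2 (0.035) or control replicate 3 (0.071), by the tag (0.517) and without the conflicting tags (0.317), and ran from -0.391 to 0.187 with each library left out. Ctsk changed sign by the tag (-0.074). Acp5 gained a call without CKD replicate 1, without the conflicting tags (1.186) and without both first replicates (1.312), and ran from 0.620 to 1.236 with each library left out. Nfatc1 gained one without both first replicates (0.227) and ran from 0.286 to 0.412 with each library left out. With a pseudocount of 0.1 the untested differences were 0.281 for Tnfsf11, 1.859 for Tnfrsf11a and 1.481 for Dcstamp. By the tag Tnfsf11 had -0.020, and without both first replicates Dcstamp had 0.947, against 0.278 to 0.742 with each library left out. For these 3 genes limma-voom and the block were not run. The osteoprotegerin to RANKL log2 ratio, which mainly restates Tnfrsf11b, stayed higher in CKD, from 0.309 to 1.449. The cause of these shifts was not tested.

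Depth limits Tnfsf11, Tnfrsf11a and Dcstamp, each with at most 3 fragments in 2 or more libraries.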

Other observations

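Wnt16, a Wnt ligand of bone that has been linked to osteoprotegerin, was chosen here after its values had been seen. It stood at 39.2 FPKM in control replicate 1, from 3051 fragments, and at 0.490 and 0.471 in control replicates 2 and 3. In CKD replicates 1, 2 and 3 it stood at 1.42, 0.105 and 0.224 FPKM, from 91, 6 and 16 fragments. It did not pass the filter. Control replicate 1 was also the library with the highest Tnfrsf11b level among the controls, the highest Sdc1 level of all 6 libraries (64.1 FPKM, against 22.5 to 33.0 in the others) and the highest Il6 level (28.1 FPKM, against 7.79 to 22.6). Dcstamp, at 24.9% of the Csf1r level there, was out of proportion in the same library.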
